A study of Mus musculus with 16 samples.

Results

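The 38 Hox genes analysed here belong to the 4 mouse Hox clusters. They were found by Ensembl identifier in the count tables, and all 38 were matched among 54838 identifiers. Cluster A gave 10 of them on chromosome 6, cluster B 10 on chromosome 11, cluster C 9 on chromosome 15 and cluster D 9 on chromosome 2. RNA was taken from mouse embryos at stage E10.5 and sequenced as 16 poly-A selected libraries, 2 per group. The Tail samples were the part of the embryo below the forelimbs, and the Head samples the part above the third branchial arches. Each region was taken from embryos lacking both Fuz and Gpr161 (DKO), from Gpr161 KO embryos, from Fuz KO embryos and from wild-type (WT) embryos. Fuz encodes a planar cell polarity effector needed to build primary cilia, and Gpr161 a receptor of the cilium that restrains Hedgehog signalling. The labels name no strain, allele, sex or treatment, and are silent on whether both libraries of a group are different animals, so p-values measure the spread between these samples only.

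Hox genes encode homeodomain transcription factors that give cells their position along the head-to-tail axis. Within a cluster the genes lie in the order in which they are switched on: those with low group numbers start early and reach the hindbrain, and those with high group numbers start late and stay near the tail. Genes with the same group number in different clusters are paralogs and often share tasks. At the stage sampled, the limb buds and the tail bud also use the genes with high numbers.

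Library totals ran from 39062489 to 53680317 counts, and levels are given as CPM, counts scaled to a common library size with the trimmed mean of M-values. The targeted genes were low in the libraries labelled as lacking them. Fuz was at 0.877 to 1.66 CPM in Fuz KO libraries and 0.808 to 1.89 in DKO libraries, against 5.17 to 7.84 in WT libraries. Gpr161 was at 4.08 to 4.98 CPM in Gpr161 KO libraries and 2.12 to 5.44 in DKO libraries, against 46.8 to 55.0 in WT libraries. In the Fuz KO libraries, which should keep Gpr161, it was at 24.3 CPM in Tail Fuz KO 1 and 25.4 in Head Fuz KO 1, below every WT library, and at 42.7 in Tail Fuz KO 2 and 52.5 in Head Fuz KO 2. The regions also matched: Otx2, a forebrain and midbrain marker, reached at most 0.462 CPM in Tail libraries and was at 44.9 CPM or more in every Head library, while Tbx4, a hindlimb marker, was at 31.2 CPM or more in Tail and at most 0.964 CPM in Head. Some libraries stood apart. The number 1 libraries of Fuz KO, Gpr161 KO and DKO had summed hypoxia and glycolysis genes of 11014 to 20175 CPM in either region, against 5106 to 6531 CPM in the WT libraries, and the 20 cardiomyocyte genes summed to 2891 and 619 CPM in Head Gpr161 KO 1 and 2, against 12.7 and 15.9 CPM in Head WT. Xist, a sex-linked gene, was at 824 to 977 CPM in the WT and both Gpr161 KO 2 libraries. In the other 10 libraries it was at most 1.22 CPM. In comparisons with WT this difference and the Fuz KO or DKO genotype cannot be told apart. It also separates number 1 from number 2 of Gpr161 KO in both regions. Even values made up 67.8% to 78.4% of all gene counts between 1 and 10, so low counts are less precise than their size implies.

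Of the 38 genes, 37 passed the filter on low counts. Hoxd4, which helps shape the second neck vertebra, had 0 counts in all 16 libraries. In the annotation used for gene lengths, 52.3% of its exon bases are shared with the neighbouring models Hoxd3, Gm28230 or Hoxd3os1, and 62.9% of those of Hoxd3 are shared with Hoxd4, Gm28230, Haglr or Hoxd3os1. Hoxb3 shares 52.9% of its exon bases with the antisense model Hoxb3os, and Hoxa11 shares 35.0% with the antisense model Hoxa11os. How reads in shared bases were assigned, and whether strand was used, is not given in the sources used here, so the values of these genes and their partners are uncertain.

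In WT embryos, 33 of the 37 genes were higher in Tail than in Head and none was lower, where 1.74% of the 21284 genes tested were called higher in Tail. A gene was called at an adjusted p under 0.05 (edgeR quasi-likelihood test, Benjamini-Hochberg over all genes). The same count was 33 in DKO embryos (2.93% of all genes), 32 in Gpr161 KO embryos (2.23%) and 33 in Fuz KO embryos (2.65%), with none lower in Tail. The 38 genes together summed to 1145 and 1331 CPM in Tail WT, against 17.7 and 30.7 CPM in Head WT. In Head WT, groups 1 to 3 made up 91.7% and 85.6% of that sum, and in Tail WT 6.76% and 6.73%. The mutants had similar shares: groups 1 to 3 held 87.4% to 94.95% of the Hox sum in mutant Head libraries and 6.10% to 9.20% in mutant Tail libraries. In a bulk sample, fewer expressing cells and less RNA per cell cannot be told apart.

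**Figure D1:**
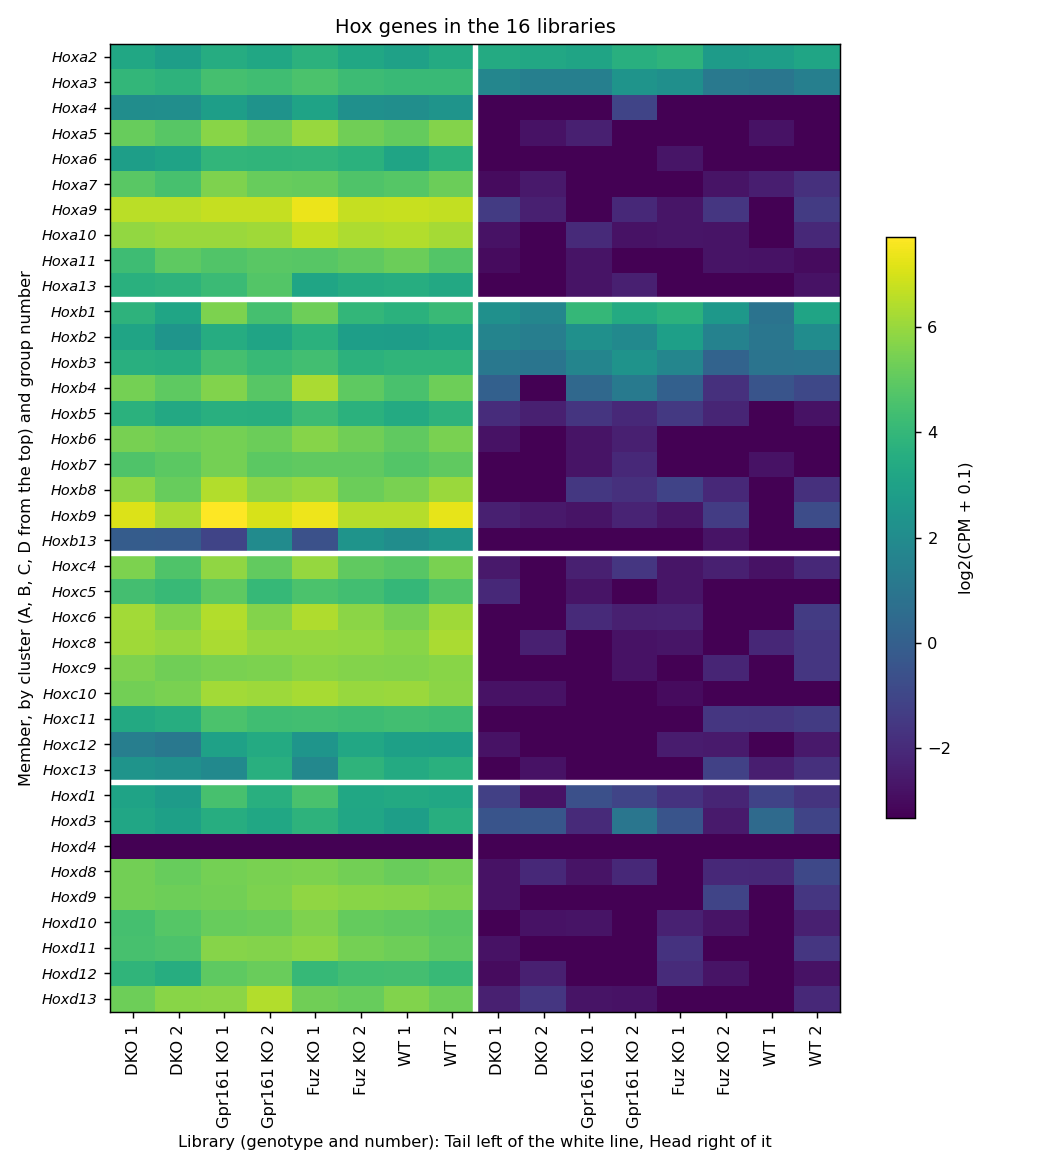
Heat map of log2(CPM + 0.1) for the 38 Hox genes (rows, by cluster and group number) in the 16 libraries (columns, Tail left and Head right). In Head the colour falls away below groups 1 to 3 of clusters A and B, and the Hoxd4 row is at 0 CPM, the lowest colour, throughout.

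Of the 7 genes of groups 1 to 3, 3 were called higher in Tail in WT embryos (Hoxa3, Hoxb3 and Hoxd1), and the other 4 were not called. Hoxa2, which specifies the second branchial arch and part of the hindbrain, was at 7.90 and 10.52 CPM in Tail WT, against 7.22 and 8.85 CPM in Head WT. The groups overlap, and the log2 fold change was 0.20 with an SE of 0.34 (edgeR adjusted p = 0.913). It was also the gene whose fitted fold changes between regions lay closest to 0 in the mutants, at -0.30 in DKO, -0.04 in Gpr161 KO and 0.15 in Fuz KO.

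Hoxb1, which gives the fourth rhombomere of the hindbrain its identity, was at 12.8 and 17.6 CPM in Tail WT, against 1.75 and 8.45 CPM in Head WT. The WT groups do not overlap, but the 2 Head libraries differ by far more than the 2 Tail libraries, and the gene was not called (log2 1.58, edgeR adjusted p = 0.370). Hoxb2, which acts with Hoxb1 in facial motor neurons, was at 6.94 and 8.00 CPM in Tail WT, against 1.93 and 3.94 CPM in Head WT (log2 1.35, edgeR adjusted p = 0.163). Neither gene was called in a mutant genotype either, with Hoxb1 at log2 1.35 to 1.54 and Hoxb2 at 0.97 to 1.33.

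Hoxb1 keeps itself on in the fourth rhombomere through sites bound jointly by PBX and HOX proteins, a textbook case of Hox autoregulation. Its RefSeq promoter window (GRCm38.p6, chr11:96365508-96365807, plus strand, 250 bases before to 50 after the start) is shown because it carries such letters. Capitals mark the 1 match to TGATNGAT on either strand, which ends 154 bases before the start.
Hoxb1 promoter: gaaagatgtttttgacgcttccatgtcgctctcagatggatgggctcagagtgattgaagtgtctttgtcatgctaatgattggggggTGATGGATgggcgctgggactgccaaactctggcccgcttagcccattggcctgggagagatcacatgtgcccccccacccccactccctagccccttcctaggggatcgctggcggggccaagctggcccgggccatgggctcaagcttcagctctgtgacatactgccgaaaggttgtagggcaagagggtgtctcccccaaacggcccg
The same letters occur in 2.1% of all 32851 promoter windows, and among the 22 Hox genes with a window also in those of Hoxa2 and Hoxd11. A match is a description of the sequence and not evidence that the site is bound.

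The third group was called in the Tail direction except at cluster D. Hoxa3, needed for thymus, parathyroid and parts of the branchial arches, averaged 17.6 ± 0.0785 CPM in Tail WT and 2.27 ± 0.510 CPM in Head WT (SD, n = 2 each; log2 2.96, edgeR adjusted p = 0.000506). Hoxb3 was at 14.6 and 14.7 CPM in Tail WT, against 1.79 and 1.85 CPM in Head WT (log2 3.00, edgeR adjusted p = 0.00105), with the exon overlap noted above. Hoxd3, which patterns the first neck vertebra, was at 7.13 and 11.9 CPM in Tail WT, against 1.30 and 0.375 CPM in Head WT. It was called in DKO and Fuz KO embryos (edgeR adjusted p = 0.0423 and 0.0143) and not in Gpr161 KO or WT embryos (edgeR adjusted p = 0.0569 and 0.0740). The DKO call was lost without Head WT 1 or any 1 of the 8 Tail libraries or the 2 Head DKO libraries (edgeR adjusted p between 0.0508 and 0.270) and with the replicate block (0.0575 by edgeR), and the Fuz KO call without Head Fuz KO 2 or Tail Fuz KO 1 (edgeR adjusted p = 0.0610 and 0.0715). With genotype and number as the block both calls were lost (edgeR adjusted p = 0.0994 in DKO and 0.0597 in Fuz KO). Whether these genotypes differ is tested by the contrasts between regions given further on, where no Hox gene was called. Hoxd1, linked to pain-sensing neurons in mouse, was at 10.4 and 9.24 CPM in Tail WT, against 0.359 and 0.211 CPM in Head WT. Its ratio by counts was 34.1 (95% exact interval 23.0 to 53.1, counting error only). The exact intervals here and below treat each count as independent. Low counts were mostly even numbers, so these intervals can be too narrow.

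All 14 tested genes of groups 4 to 8 were called higher in Tail in each genotype. Over the 30 genes of groups 4 and up with counts in Tail, Head WT levels were at a median of 0.182% of Tail WT levels and at most 1.70%. The 2 Head WT libraries together held 0 counts of 6 of these genes, 1 to 3 counts of 7, and more than 3 counts of 17. The gene at the top of that range was Hoxb4, which helps set the posterior hindbrain, at 23.2 and 38.6 CPM in Tail WT, against 0.628 and 0.422 CPM in Head WT (count ratio 58.9, exact interval 44.0 to 80.6; edgeR adjusted p = 0.0130). Its WT call was lost without Head WT 1, Head WT 2 or Tail WT 2 (edgeR adjusted p = 0.162, 0.174 and 0.0527). In Head Gpr161 KO libraries Hoxb4 reached 1.23 and 2.23 CPM, which was 4.51% of the Tail Gpr161 KO level. The cardiomyocyte genes given above were also high in these libraries, and their part in the Hoxb4 value was not tested.

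Hoxc4, the first gene of cluster C analysed, was at 28.7 and 44.7 CPM in Tail WT, against 0.0449 and 0.141 CPM in Head WT (log2 8.60, edgeR adjusted p = 3.75e-05). Hoxa4 had 402 counts in Tail WT and 0 in Head WT, at least 137-fold higher in Tail against a floor of 3 counts over the group (edgeR adjusted p = 0.00449). With genotype and replicate number as a block its edgeR adjusted p was 0.202 in WT, and between 0.154 and 0.184 in the mutants. The floor also treats each count as independent, so the Hoxa4 bound and those below can be too high. Hoxb6 and Hoxc5 also had 0 counts in Head WT and were at least 1112-fold and at least 615-fold higher in Tail, and Hoxa6 at least 318-fold. These are genes of the neck and chest levels of the axis, and of the remaining ones Hoxa5 (needed for lung and airway development), Hoxa7, Hoxb5, Hoxb7, Hoxb8, Hoxc6, Hoxc8 and Hoxd8 had count ratios of 140 (Hoxd8) to 1823 (Hoxa5) between Tail WT and Head WT. The ratios of Hoxa5, Hoxb5 and Hoxb7 rest on 2 Head counts each, with exact intervals of 504 to 15058, 147 to 4414 and 358 to 10709.

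In groups 9 to 13, 16 of 16 genes were called higher in Tail in WT embryos and 15 of 16 in each mutant genotype. Hoxa13, which with Hoxd13 builds the digits, the hindgut end and the genital region, was at 11.5 and 9.86 CPM in Tail WT, against 0 and 0.0469 CPM in Head WT (edgeR adjusted p = 8.11e-06). Hoxd13 was at 49.2 and 37.9 CPM in Tail WT, against 0 and 0.141 CPM in Head WT (edgeR adjusted p = 6.65e-06). Hoxc13, known for hair and nail growth, was at 10.53 and 12.6 CPM in Tail WT, against 0.0897 and 0.188 CPM in Head WT (edgeR adjusted p = 0.0121). In none of the 3 genes do the groups overlap, and the Hoxc13 call was lost without Head WT 1, Head WT 2 or Tail WT 1 (edgeR adjusted p = 0.176, 0.127 and 0.0539).

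Hoxb13, which limits the length of the tail, was the exception. It was at 4.12 and 5.35 CPM in Tail WT, with 0 counts in Head WT (at least 138-fold higher, edgeR adjusted p = 0.0420). In the mutants the 2 Tail libraries were 0.831 and 0.803 CPM in DKO, 0.379 and 3.82 in Gpr161 KO and 0.567 and 5.04 in Fuz KO. The gene was not called there (edgeR adjusted p = 0.105, 0.0507 and 0.0623), and in Gpr161 KO and Fuz KO the low library was number 1. The WT call was lost without either library of Tail WT, Head WT, Tail DKO or Head Fuz KO (edgeR adjusted p between 0.0919 and 0.234).

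Among the other genes of high number, Hoxc10, a gene of lumbar and hindlimb-level motor neurons, had 5151 counts in Tail WT and 0 in Head WT, at least 1751-fold higher. Hoxc11 and Hoxc13 had the lowest count ratios of groups 9 to 13, 78.01 and 84.4, with 22 and 12 counts in Head WT. The others, Hoxa9, Hoxa10, Hoxa11, Hoxb9, Hoxc9, Hoxc12, Hoxd9, Hoxd10, Hoxd11 and Hoxd12, lay between 218 (Hoxc12) and 1150 (Hoxa10). Of these, Hoxa11 and Hoxc12 rest on 3 Head counts and Hoxd12 on 2, with exact intervals of 313 to 4440, 74.1 to 1058 and 227 to 6784.

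Divided by exon length, so that genes can be compared, the order of levels in Tail WT was led by Hoxb9, a gene of the chest-level axis, at 34.7 and 60.0 CPM per kb. Hoxc10 followed at 34.3 and 28.9 CPM per kb and Hoxa10, which specifies rib-free lumbar vertebrae with its paralogs, at 26.2 and 22.3 CPM per kb. These ranges do not overlap, although Hoxb9 in its lower library and Hoxc10 in its higher one nearly meet. The next 3 genes, Hoxc6, Hoxc8 and Hoxd9, had means of 23.0 to 23.6 CPM per kb and ranges that overlap one another and that of Hoxa10. The range of Hoxc6, 18.0 to 29.3, also reaches that of Hoxc10. The lowest detected genes were Hoxd3, Hoxb13 and Hoxb2, at means of 2.14 to 2.27 CPM per kb. In Head WT, Hoxa2 led with 4.07 and 4.98 CPM per kb, above Hoxb1 with 0.753 and 3.64, whose range overlaps that of Hoxb2 at 0.553 and 1.13. Hoxb3 and Hoxa3 followed with means of 0.429 and 0.377 CPM per kb and overlapping ranges.

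**Figure D2:**
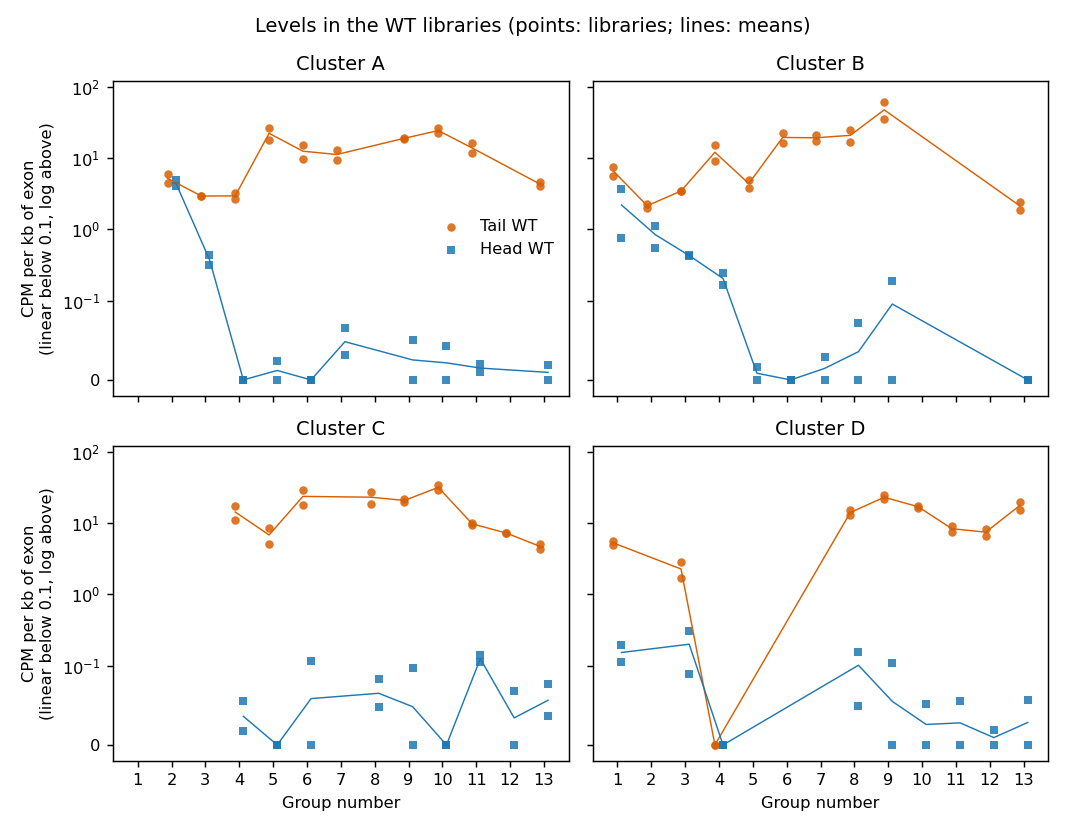
CPM per kb of exon in the 2 Tail WT and 2 Head WT libraries (points) against group number, 1 panel a cluster, with lines through the means and an axis that is linear below 0.1 and logarithmic above. Tail means of the detected genes lie between 2.14 and 47.4 CPM per kb, and Head means from group 4 on are at most 0.205 CPM per kb.

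Hox proteins bind DNA together with TALE cofactors (the Pbx, Meis and Pknox families). Of 9 of these, 2 were called higher in Tail WT than in Head WT (1.74% of all genes) and none lower (2.02% of all genes). Meis1 was at 154 and 156 CPM in Tail WT, against 50.2 and 59.5 CPM in Head WT (log2 1.501, edgeR adjusted p = 2.13e-05). Meis2 was at 240 and 217 CPM in Tail WT, against 131 and 126 CPM in Head WT (edgeR adjusted p = 0.00342, and 0.0542 without Head WT 2). The 24 Polycomb and trithorax genes, which keep Hox genes off or on, gave 0 calls between Tail WT and Head WT by edgeR. At the shares of all genes called, 1.74% higher and 2.02% lower, 0 of 24 is no result about these genes. Their median log2 fold change was -0.05, near that of all genes tested (0.02). In DKO embryos 3 of them were lower in Tail than in Head, Phc2, Ring1 and Phc1, by 0.49, 0.70 and 0.48 on the log2 scale (edgeR adjusted p = 0.0122, 0.0128 and 0.0262), where 4.11% of all genes were called lower in Tail DKO.

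Of 20 regulators that act upstream of Hox genes, 5 were called higher in Tail WT (1.74% of all genes) and 1 lower (2.02% of all genes). Aldh1a2, which makes retinoic acid, was at 125 and 107 CPM in Tail WT, against 2.51 and 2.91 CPM in Head WT (edgeR adjusted p = 0.000185). Tbxt, the T-box factor of the primitive streak and tail bud, was at 20.8 and 36.1 CPM in Tail WT, against 0.471 and 0.493 CPM in Head WT (edgeR adjusted p = 0.000432). Cdx1, Cdx2 and Cdx4, homeobox activators of the trunk and tail Hox genes, were the other 3. The Cdx2 call was lost without Head WT 1, Tail WT 1 or Tail WT 2 (edgeR adjusted p = 0.138, 0.0835 and 0.0628) and the Cdx4 call without Head WT 1 (edgeR adjusted p = 0.0796). Cyp26c1, which breaks retinoic acid down in the head, was lower in Tail WT at 1.03 and 0.595 CPM, against 23.0 and 12.6 CPM in Head WT (edgeR adjusted p = 0.0101). Its call was lost without Head WT 1, Tail WT 1 or Tail WT 2 (edgeR adjusted p = 0.0688, 0.0970 and 0.0989).

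Of the other transcripts of the clusters, 11 of the 14 tested, of 17 listed, were called higher in Tail WT and none lower. Of all genes, 1.74% were called higher and 2.02% lower. Hoxa11os, antisense to Hoxa11, was at 11.8 and 9.86 CPM in Tail WT, against 0 and 0.0939 CPM in Head WT (edgeR adjusted p = 8.04e-05), and Hotair, a long RNA of cluster C, at 3.81 and 3.499 CPM, against 0 and 0.164 CPM (edgeR adjusted p = 0.00327). The clusters also carry microRNAs of 2 seed families that target Hox messages. Their mature sequences (RefSeq, GRCm38.p6) are shown with the seed, bases 2 to 8, in capitals.
miR-10a-5p: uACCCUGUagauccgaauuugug
miR-10b-5p: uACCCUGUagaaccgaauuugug
miR-196a-5p: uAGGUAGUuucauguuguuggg
miR-196b-5p: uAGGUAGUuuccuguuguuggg
The pair in each family shares its seed and differs at 1 base, U12A from miR-10a-5p to miR-10b-5p and A12C from miR-196a-5p to miR-196b-5p, counted from 1 at the 5′ end. Poly-A libraries do not measure mature microRNAs, so the counts below are of longer transcripts over each locus. Mir196a-1, between Hoxb9 and Hoxb13, was at 2.47 and 2.61 CPM in Tail WT with 0 counts in Head WT, and Mir10a, near Hoxb4, at 0.407 and 0.320 CPM with 0 counts in Head WT (edgeR adjusted p = 0.000209 and 0.0188). Mir196b, in cluster A, had 0 counts in every library. In the annotation used for gene lengths, 85 exon bases of Hoxa9 are shared with Mir196b on the same strand. Hoxa9 had 4494 and 4535 counts in Tail WT, so the 0 does not show that no transcript covers the locus.

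Among the mutants, no Hox gene was called in any comparison of genotypes by edgeR. The Tail libraries, where the genes are well expressed, are described first. Between Tail Gpr161 KO and Tail WT edgeR called 0 of 37 genes (0.305% of all genes), with 2 at an unadjusted p under 0.05 (6.98% of all genes), and DESeq2 called 1 (1.48% of all genes). That gene was Hoxa13, at 18.2 and 26.8 CPM in Tail Gpr161 KO, against 11.5 and 9.86 CPM in Tail WT. The groups do not overlap, and the log2 fold change was 1.08 with an SE of 0.33 (edgeR adjusted p = 0.359, DESeq2 adjusted p = 0.00761).

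Hoxd12, a limb and genital gene next to Hoxd13, was at 30.9 and 35.8 CPM in Tail Gpr161 KO, against 20.9 and 16.8 CPM in Tail WT (log2 0.82, edgeR adjusted p = 0.627). Hoxd13 was at 54.2 and 87.1 CPM in Tail Gpr161 KO, against 49.2 and 37.9 CPM in Tail WT (log2 0.70, edgeR adjusted p = 0.786). In both genes the groups do not overlap. Over the 37 genes, 14 had both Tail Gpr161 KO libraries above both Tail WT libraries (37.8%, against 22.6% of all genes) and 4 had them below (10.8%, against 22% of all genes). The 9 tail bud markers summed to 258 and 116 CPM in Tail Gpr161 KO, against 87.5 and 105 CPM in Tail WT, with 6 of 9 higher and 2 lower without overlap. The list is not confined to the tail bud, as it summed to 46.8 and 43.7 CPM in Head WT. Cyp26a1 and Wnt3a were higher in Head WT than in Tail WT, while Tbxt, Cdx1, Cdx2 and Cdx4 were higher in Tail WT. Of the 3 genes listed as hindgut markers, Cdx2 is also in the tail bud list, and Foxa2 and Shh are floor plate genes too: Shh was at 109 and 149 CPM in Head Gpr161 KO, against 27.1 and 31.5 CPM in Head WT, so the list does not mark the hindgut here. In Tail its sum was 117 and 85.1 CPM in Gpr161 KO libraries, against 27.0 and 38.3 CPM in Tail WT, all 3 higher without overlap. Neither list has a gene at 0, and their part in the Hox values was not tested. The 2 hindlimb markers, Pitx1 and Tbx4, summed to 150 and 145 CPM in Tail Gpr161 KO, against 205 and 124 CPM in Tail WT, and for neither were the groups apart.

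Between Tail DKO and Tail WT edgeR called 0 of 37 (0.0423% of all genes), with 2 at an unadjusted p under 0.05 (7.19% of all genes), and DESeq2 called 2 (0.691% of all genes), Hoxc12 and Hoxc11, both lower. Hoxc12, known in hair follicles, was at 2.54 and 2.04 CPM in Tail DKO, against 7.54 and 7.43 CPM in Tail WT (log2 -1.71, SE 0.48, edgeR adjusted p = 0.386, DESeq2 adjusted p = 0.00307). Hoxc11, of the lumbosacral axis and hindlimb, was at 10.3 and 11.4 CPM in Tail DKO, against 20.2 and 19.2 CPM in Tail WT (DESeq2 adjusted p = 0.00894). In both genes the WT libraries lie close together and well above the DKO libraries.

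Further genes of high number had lower values in Tail DKO, named here after their values were seen except for Hoxc10. Hoxc10 was at 41.1 and 44.7 CPM in Tail DKO, against 65.5 and 55.2 CPM in Tail WT (log2 -0.49, edgeR adjusted p = 0.557), and Hoxc13 at 5.17 and 4.54 CPM, against 10.53 and 12.6 CPM. Hoxb13 was at 0.831 and 0.803 CPM in Tail DKO, against 4.12 and 5.35 CPM in Tail WT. Over the 37 genes, 17 had both Tail DKO libraries below both Tail WT libraries (45.9%, against 20.8% of all genes) and 1, Hoxa13, had them above (2.703%, against 21.4% of all genes). The median log2 difference was -0.26 over the Hox genes and 0.01 over all genes tested. The 9 tail bud markers moved with these values: they summed to 60.9 and 48.5 CPM in Tail DKO, against 87.5 and 105 CPM in Tail WT, 6 of 9 had both DKO libraries below both WT libraries, and none was at 0. Cdx2, Foxa2 and Shh summed to 13.2 and 14.8 CPM in Tail DKO, against 27.0 and 38.3 CPM in Tail WT, all lower without overlap. Their part in the result was not tested.

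The smallest adjusted p-values of any Tail comparison of genotypes were those between Tail DKO and Tail Gpr161 KO. There edgeR called 0 of 37 (0.522% of all genes), with 8 at an unadjusted p under 0.05 (12.2% of all genes), and DESeq2 called 5, all lower in DKO (3.29% of all genes called). Hoxc12 was at 2.54 and 2.04 CPM in Tail DKO, against 7.80 and 10.4 CPM in Tail Gpr161 KO (log2 -1.99, SE 0.48, edgeR adjusted p = 0.0946, DESeq2 adjusted p = 3.77e-05). Hoxd12 was at 14.5 and 11.4 CPM in Tail DKO, against 30.9 and 35.8 CPM in Tail Gpr161 KO (log2 -1.36, SE 0.34, edgeR adjusted p = 0.110). Hoxc10 was at 41.1 and 44.7 CPM in Tail DKO, against 71.1 and 67.1 CPM in Tail Gpr161 KO (log2 -0.69, SE 0.17, edgeR adjusted p = 0.111).

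In these 3 genes the groups are far apart relative to their own spread, and the edgeR call depended on which libraries shared the fit. The shares of all genes called in these other fits are not given here. Their counts therefore do not show a change particular to Hox genes. With the Tail libraries fitted alone 2 of 37 genes were called, Hoxd12 and Hoxd11 (edgeR adjusted p = 0.0449 and 0.0497), and not Hoxc12 or Hoxc10. Without Head Fuz KO 1 or Head Fuz KO 2 the calls were 3, Hoxc10, Hoxc11 and Hoxd12, and without both Fuz KO 1 libraries 4, these and Hoxc12. Hoxd11, named after its values were seen, was at 22.5 and 24.1 CPM in Tail DKO, against 51.1 and 49.5 CPM in Tail Gpr161 KO (log2 -1.11, edgeR adjusted p = 0.425). Hoxc11 was at 10.3 and 11.4 CPM in Tail DKO, against 23.6 and 20.0 CPM in Tail Gpr161 KO, and Hoxa6 at 7.04 and 8.28 CPM, against 15.1 and 14.5 CPM; both were called by DESeq2 (adjusted p = 0.000193 and 0.0273). Over the 37 genes, 20 had both DKO libraries below both Gpr161 KO libraries (54.1%, against 23% of all genes) and 0 had them above (24.5% of all genes). The tail bud markers summed to 60.9 and 48.5 CPM in Tail DKO, against 258 and 116 CPM in Tail Gpr161 KO, with 6 of 9 lower without overlap and none at 0. Cdx2, Foxa2 and Shh summed to 13.2 and 14.8 CPM in Tail DKO, against 117 and 85.1 CPM in Tail Gpr161 KO. Neither list's part in the result was tested.

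**Figure D3:**
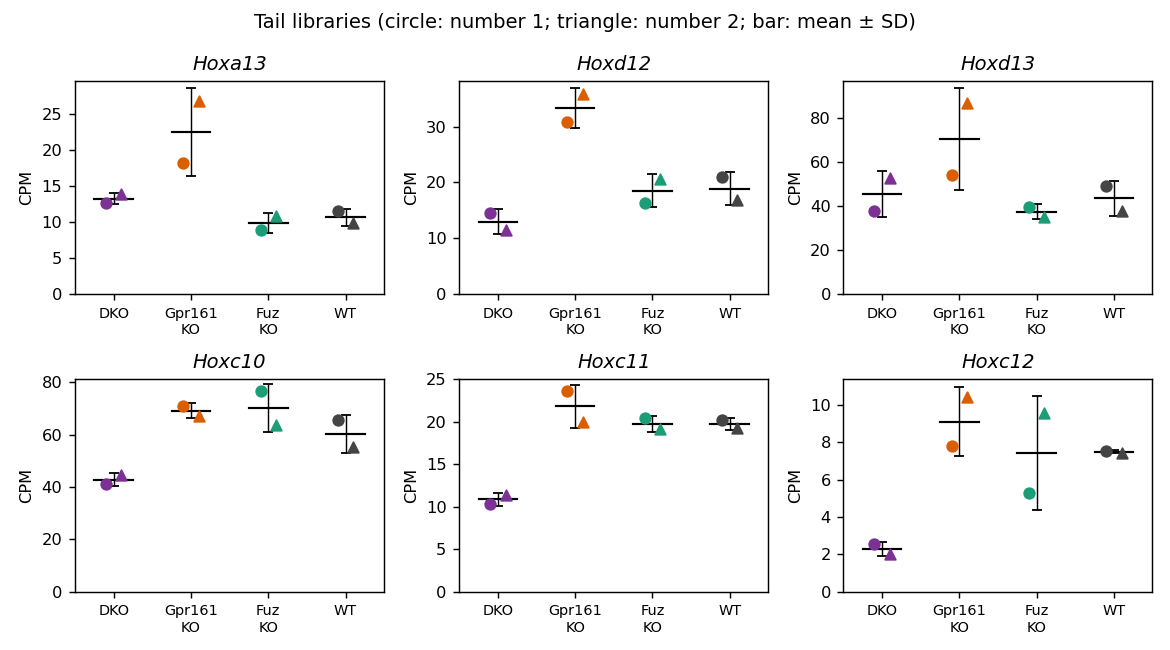
CPM of 6 Hox genes of groups 10 to 13 in the Tail libraries of DKO, Gpr161 KO, Fuz KO and WT embryos, with each library as a point and the mean ± SD (n = 2) as a bar. Tail Gpr161 KO lies above the other groups in the top row, and Tail DKO lies below them in the bottom row.

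Between Tail DKO and Tail Fuz KO edgeR called 0 of 37 (0.0329% of all genes), with 4 at an unadjusted p under 0.05 (3.69% of all genes), and DESeq2 called 3 (0.117% of all genes), Hoxc12, Hoxc11 and Hoxc10, all lower in DKO. Hoxc10 was at 41.1 and 44.7 CPM in Tail DKO, against 76.8 and 63.8 CPM in Tail Fuz KO (log2 -0.71, edgeR adjusted p = 1, DESeq2 adjusted p = 0.0391). Hoxc12 was at 2.54 and 2.04 CPM, against 5.26 and 9.58 CPM, and Hoxa6 at 7.04 and 8.28 CPM, against 15.2 and 13.0 CPM. The tail bud markers summed to 60.9 and 48.5 CPM in Tail DKO, against 246 and 106 CPM in Tail Fuz KO. Of these markers 8 of 9 were lower without overlap (13.7% of all genes) and none was at 0, and their part in the result was not tested. These comparisons share the DKO libraries with those above, so the same 2 libraries enter each.

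Between Tail Fuz KO and Tail WT edgeR and DESeq2 each called 0 of 37 (0.0094% of all genes by edgeR and 0.113% by DESeq2), and none was at an unadjusted p under 0.05, where 5.21% of all genes were. The 3 smallest p-values belonged to Hoxd1, Hoxc10 and Hoxb1. Hoxd1 was at 23.3 and 9.46 CPM in Tail Fuz KO, against 10.4 and 9.24 CPM in Tail WT. Hoxb1 was at 38.6 and 15.6 CPM in Tail Fuz KO, against 12.8 and 17.6 CPM in Tail WT. For both the groups overlap, and the high value is that of library Fuz KO 1. Hoxc10 was at 76.8 and 63.8 CPM, against 65.5 and 55.2 CPM, also with overlap.

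Whether the DKO value departs from the sum of the 2 single-mutant effects on the log2 scale was tested in each region. In Tail edgeR called 0 of 37 (0.0423% of all genes), with 7 at an unadjusted p under 0.05 (6.24% of all genes), and DESeq2 called 3 (0.583% of all genes), Hoxc10, Hoxc12 and Hoxd12, all below the sum. Hoxc10 had the smallest p, with a log2 departure of -0.91 (SE 0.24, edgeR adjusted p = 0.493, DESeq2 adjusted p = 0.0475), followed by Hoxc12 at -1.98 (edgeR adjusted p = 0.651) and Hoxd12 at -1.33 (edgeR adjusted p = 0.700). The departure was negative for 36 of 37 genes, with a median of -0.62, against 0.01 over all genes. The number 1 libraries of both single mutants enter this value with higher values of most genes of groups 1 to 8 than their partners, as described next. Groups 9 to 13 were negative for 16 of 16 genes, with a median log2 departure of -0.63. For Hoxc12 and Hoxd12 the number 1 library was the lower one in both single mutants, and for Hoxc10 the higher one. The part of the libraries in these values was not tested.

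The 2 libraries of a group did not always match, and in Tail Gpr161 KO and Tail Fuz KO the mismatch followed group number. In Tail Fuz KO the number 1 library was higher than number 2 by a median log2 ratio of 0.86 over groups 1 to 4 and lower by -0.60 over groups 12 and 13. In Tail Gpr161 KO the same medians were 0.46 and -0.62. In Tail DKO they were 0.38 and 0.12, and in Tail WT -0.35 and 0.12. The Tail WT libraries also differed by group number, in the other direction. Their median was -0.54 over groups 5 to 8, with all 11 genes between -0.72 and -0.20, and 0.14 over groups 9 to 11. Hoxb1 was at 45.8 CPM in Tail Gpr161 KO 1 and 21.8 in Tail Gpr161 KO 2, and Hoxb4 at 77.5 CPM in Tail Fuz KO 1 and 30.9 in Tail Fuz KO 2. At the other end, Hoxc13 was at 3.60 CPM in Tail Gpr161 KO 1 and 12.1 in Tail Gpr161 KO 2, and at 3.46 CPM in Tail Fuz KO 1 and 14.1 in Tail Fuz KO 2. A group mean of these genes thus covers a pair of unlike libraries, and replicate numbers carry no order.

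**Figure D4:**
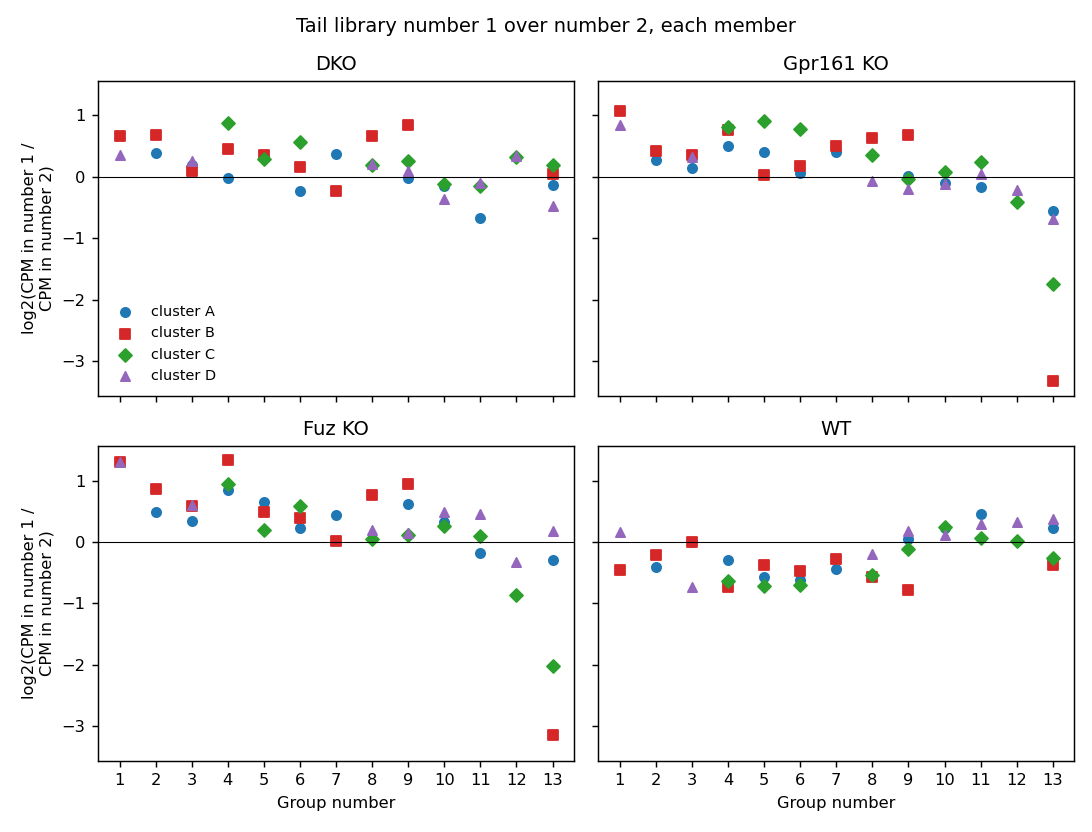
Log2 ratio of the number 1 to the number 2 Tail library for each of the 37 tested Hox genes against group number, 1 panel a genotype. In Gpr161 KO and Fuz KO the points run from above 0 at group 1 to about -3 for Hoxb13 at group 13, where Hoxd13 in Fuz KO lies above 0. The DKO and WT panels do not show this fall. In WT all points of groups 5 to 8 lie below 0.

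Marker genes differed between the same libraries, and Xist, given above, differed between those of Gpr161 KO. The 9 tail bud markers summed to 258 CPM in Tail Gpr161 KO 1 and 116 in Tail Gpr161 KO 2, to 246 CPM in Tail Fuz KO 1 and 106 in Tail Fuz KO 2, and to 87.5 and 105 CPM in Tail WT. Cdx2 was at 49.9 and 16.3 CPM in Tail Gpr161 KO, 45.7 and 11.7 CPM in Tail Fuz KO and 10.6 and 13.2 CPM in Tail WT. Lin28a, an RNA-binding protein of early embryos, was at 360 and 275 CPM in Tail Gpr161 KO, 350 and 150 CPM in Tail Fuz KO and 170 and 140 CPM in Tail WT. The hypoxia and glycolysis genes summed to 11623 and 7699 CPM in Tail Gpr161 KO, 18662 and 6420 CPM in Tail Fuz KO and 5937 and 6531 CPM in Tail WT; they were also at 14298 and 8914 CPM in Tail DKO, whose tail bud markers were low in both libraries. The part of these differences in the Hox values was not tested.

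Cdx proteins bind the letters TTTATG, and the promoter windows of Hoxa7 and Hoxb8, both trunk genes, are shown because each holds 2 matches on either strand, in capitals (GRCm38.p6, chr6:52218524-52218823, minus strand, and chr11:96281655-96281954, plus strand).
Hoxa7 promoter: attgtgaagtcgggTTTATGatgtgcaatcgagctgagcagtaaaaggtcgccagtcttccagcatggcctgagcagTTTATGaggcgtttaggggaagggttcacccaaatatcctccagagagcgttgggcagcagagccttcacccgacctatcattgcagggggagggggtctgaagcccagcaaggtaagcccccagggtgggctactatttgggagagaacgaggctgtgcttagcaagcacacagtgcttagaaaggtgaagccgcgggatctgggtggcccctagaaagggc
Hoxb8 promoter: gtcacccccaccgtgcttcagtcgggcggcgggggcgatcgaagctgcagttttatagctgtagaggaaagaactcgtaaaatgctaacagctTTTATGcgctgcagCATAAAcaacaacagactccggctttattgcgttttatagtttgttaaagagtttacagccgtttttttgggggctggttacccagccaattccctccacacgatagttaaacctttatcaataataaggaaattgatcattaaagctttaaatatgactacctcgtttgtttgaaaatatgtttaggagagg
The letters occur in 11.9% of all windows and in those of 5 of the 22 Hox genes with a window, the other 3 being Hoxd3, Hoxd4 and Hoxd11. Hoxb8 was at 85.6 and 55.5 CPM in Tail Gpr161 KO, 63.6 and 37.3 CPM in Tail Fuz KO and 44.0 and 65.7 CPM in Tail WT, and Hoxa7 at 47.1 and 35.5, 33.9 and 24.9, and 27.3 and 37.1 CPM in the same groups. The mutant groups overlap with WT. In both single mutants the number 1 library was the higher one, as it was for most genes of groups 1 to 8 with or without these letters. Searches for a direct repeat of GGTCA with 5 bases between the copies (in 0.0761% of all windows) and for the GLI motif GACCACCCA (in 0.253%) found no match in these Hox windows. The spacing of retinoic acid response elements is counted between longer half-sites. The repeat searched is therefore not that element, and nothing about it follows from this search.

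In Head the comparisons of genotypes rest on few genes with more than a handful of counts. Between Head Gpr161 KO and Head WT edgeR called 0 of 37 (2.02% of all genes), with 8 at an unadjusted p under 0.05 (12.9% of all genes), and DESeq2 called 2 (4.58% of all genes), Hoxc11 and Hoxa7. Both had 0 counts in Head Gpr161 KO, against 10 and 12 counts of Hoxc11 and 4 and 8 counts of Hoxa7 in Head WT, and edgeR gave adjusted p-values of 0.0558 and 0.0596. Hoxb5 had 9 and 6 counts in Head Gpr161 KO, against 0 and 2 in Head WT (edgeR adjusted p = 0.0974). At counts this low most values were even numbers.

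Hoxb3 and Hoxb1, chosen here after their values were seen, have more counts in Head. Hoxb3 was at 3.13 and 4.89 CPM in Head Gpr161 KO, against 1.79 and 1.85 CPM in Head WT (log2 1.14, edgeR adjusted p = 0.212), and Hoxb1 at 16.0 and 10.47 CPM, against 1.75 and 8.45 CPM. In both the groups do not overlap, and neither was called. The 5 hindbrain markers summed to 75.6 and 86.2 CPM in Head Gpr161 KO, against 28.8 and 35.8 CPM in Head WT, with 4 of 5 higher without overlap and none at 0. Their part in these values was not tested.

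Between Head DKO and Head Gpr161 KO edgeR called 0 of 37 (4.16% of all genes), with 9 at an unadjusted p under 0.05 (17.7% of all genes), and DESeq2 called 2 (8.48% of all genes), Hoxb8 and Hoxb7. The 3 smallest p-values belonged to Hoxb7, Hoxa13 and Hoxb8, all with 0 counts in Head DKO, against 2 and 6, 2 and 4, and 10 and 8 counts in Head Gpr161 KO. Hoxb3 was at 2.00 and 1.82 CPM in Head DKO, against 3.13 and 4.89 CPM in Head Gpr161 KO, and Hoxb1 at 4.57 and 3.27 CPM, against 16.0 and 10.47 CPM, again without overlap. The hindbrain markers summed to 21.2 and 23.3 CPM in Head DKO, against 75.6 and 86.2 CPM in Head Gpr161 KO.

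The other Head comparisons gave 0 edgeR calls each. Between Head DKO and Head WT (0.0329% of all genes) 4 genes had an unadjusted p under 0.05 (4.33% of all genes) and DESeq2 called 1 (0.268% of all genes), Hoxc11, with 0 counts in Head DKO, against 10 and 12 in Head WT. Hoxb5 had 7 and 4 counts in Head DKO, against 0 and 2 in Head WT, and Hoxc10 2 and 2, against 0 and 0. Between Head Fuz KO and Head WT (0.047% of all genes) 4 genes had an unadjusted p under 0.05 (8.17% of all genes) and DESeq2 called 0 (0.235% of all genes). Hoxb5 had 10 and 5 counts in Head Fuz KO, against 0 and 2 in Head WT, while Hoxc8 had 2 and 0, against 6 and 10, and Hoxa7 0 and 2, against 4 and 8. Between Head DKO and Head Fuz KO (0.0282% of all genes) 3 genes had an unadjusted p under 0.05 (2.89% of all genes), Hoxd13, Hoxc11 and Hoxb8, and DESeq2 called 0 (0.0564% of all genes). Hoxd13 had 4 and 10 counts in Head DKO, against 0 and 0 in Head Fuz KO, Hoxc11 had 0 and 0, against 0 and 10, and Hoxb8 had 0 and 0, against 14 and 6. The Hoxc11 groups touch at 0.

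Whether a mutation acted differently in Tail and Head was tested as a difference of effects. EdgeR called 0 of 37 Hox genes for DKO (0% of all genes), 0 for Gpr161 KO (0.094%) and 0 for Fuz KO (0%), with 3, 7 and 4 at an unadjusted p under 0.05 (3.25%, 5.26% and 2.12% of all genes), and DESeq2 called 0, 2 and 0 (0.0517%, 1.06% and 0% of all genes). The smallest p-values belonged to Hoxa7 and Hoxc11 in Gpr161 KO, at log2 differences of 5.93 and 6.58 (edgeR adjusted p = 0.172 and 0.221), followed by Hoxb5, to Hoxc11, Hoxc10 and Hoxb5 in DKO, and to Hoxb5, Hoxc8 and Hoxa7 in Fuz KO. Each of these rests on Head counts at or near 0, where a fitted difference depends on the prior count and is no bound. The same holds for the departure from additivity in Head (0 of 37 called by edgeR, 0.164% of all genes, 6 at an unadjusted p under 0.05, 8.02% of all genes, and 1 call by DESeq2, Hoxb8, 1.48% of all genes), led by Hoxa7, Hoxb5 and Hoxb8.

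Evx1, a neighbour named after its values were seen, was called where no Hox gene was. This gene, a homeobox gene beside Hoxa13 that acts in the tail bud and spinal cord, was at 32.5 and 23.2 CPM in Tail Gpr161 KO, against 6.92 and 8.44 CPM in Tail WT (log2 1.86, edgeR adjusted p = 0.116). Head Gpr161 KO libraries had 0.148 and 0.303 CPM of it, against 2.29 and 2.28 CPM in Head WT (log2 -3.32, edgeR adjusted p = 0.00633). The difference of these effects was called (log2 5.18, edgeR adjusted p = 0.0187), as was the lower level in Tail DKO, at 5.80 and 5.48 CPM, than in Tail Gpr161 KO (log2 -2.31, edgeR adjusted p = 0.0333). Evx2, another gene of the same list, had values that moved in the same directions. It was at 5.54 and 7.08 CPM in Tail Gpr161 KO, against 1.99 and 1.78 CPM in Tail WT. Tail DKO had 3.07 and 2.74 CPM of Evx2. In Head Gpr161 KO it was at 0 and 0.0465 CPM, against 0.897 and 1.55 CPM in Head WT. The Evx1 groups are apart in each of the comparisons above, but each Evx1 call depended on single libraries. The difference of effects was lost without Head WT 1, Head WT 2, Tail WT 1, Tail WT 2, Head Gpr161 KO 1 or Tail Gpr161 KO 1 (edgeR adjusted p between 0.0595 and 0.128). The Head call was lost without Head WT 1, Head WT 2 or Head Gpr161 KO 1 (edgeR adjusted p between 0.0518 and 0.0891). The call between Tail DKO and Tail Gpr161 KO was lost without any library of those 2 groups or either Head WT library (edgeR adjusted p between 0.0667 and 0.319), and with the Tail libraries fitted alone (0.114 by edgeR).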

How the data were processed

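RNA-seq libraries of mouse E10.5 Tail and Head tissue (8 groups of 2) were analysed from raw gene counts. The counts were deposited by the authors as whole numbers per gene and library. Per the submitters' processing notes the tools included the aligner STAR 2.7.1a, the counters HTSeq and featureCounts 1.6.0, the assembler StringTie 2.0.4, and Trimmomatic, Picard 2.20.4 and FastQC, and which of them gave these counts is not given in the sources used here.

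Genes were filtered with edgeR's filterByExpr, scaled by TMM and fitted in 1 quasi-likelihood model of the 8 groups (edgeR 4.0.16, limma 3.58.1, R 4.3.3), with Benjamini-Hochberg adjustment over all 21284 genes tested in each of 19 comparisons. DESeq2 1.42.0 was an alternative. The pipeline was tested on simulated data. Count ratios between regions have exact 95% intervals that cover only the error of independent counts, with a floor of 3 counts. Most low counts were even numbers, so the intervals can be too narrow and the bounds too high. Exon lengths, promoters and microRNAs came from a GRCm38.p6 annotation, while the notes name GRCm39, and no coordinates were converted.

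The Hox genes and all gene lists were chosen with earlier results of these data known. Every Hox gene is named. Values are given in Tail against Head for the first and last gene of each cluster and the uncalled genes, and in each mutant comparison for called genes or else the 3 smallest p-values. Genes beyond this rule, and the PBX-HOX motif, were chosen after the values and sequences were seen. Same-numbered libraries of 1 genotype deviated together in both regions (r 0.133 to 0.437), so a block of genotype and number was added as an alternative. Across genotypes r was -0.0787 to 0.302, over 0.1 in 8 of 24 pairs of groups, all between mutants. Since this was not so for every pair, numbers were not taken to pair genotypes, although mutant libraries with the same number share some of their deviation. Alternatives also changed the scaling and filter, fitted each region alone, and left out libraries.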

Additional observations from a re-analysis of the deposited data

Results flagged for a closer look

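Evx1 was singled out because the effect of Gpr161 loss differed between the regions by the test of the difference itself. The log2 effect was 5.18 higher in Tail than in Head (SE 0.67, edgeR quasi-likelihood adjusted p = 0.0187). Tail Gpr161 KO libraries had 32.5 and 23.2 CPM, against 6.92 and 8.44 CPM in Tail WT. Head Gpr161 KO libraries had 0.148 and 0.303 CPM, against 2.29 and 2.28 CPM in Head WT. Leaving out Head WT 1, Head WT 2, Tail WT 1, Tail WT 2, Head Gpr161 KO 1 or Tail Gpr161 KO 1 took the adjusted p to between 0.0595 and 0.128 by edgeR, with the log2 difference between 4.79 and 5.35. The tail bud markers, which differ between the same Tail libraries, were given beside the Hox values, and their part was not tested. Evx2 values moved in the same directions in both regions, as given above, so the pattern is not particular to Evx1.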

How the results depend on the processing

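The comparisons between regions kept their counts of called Hox genes within 1.5 times of the reported ones under every alternative run. Leaving out 1 library gave 31 to 34 in DKO, 31 to 33 in Gpr161 KO, 32 to 34 in Fuz KO and 30 to 34 in WT. Without the number 1 library of every mutant the counts were 26 in each mutant and 32 in WT, and Hoxa9, Hoxb8, Hoxb9, Hoxc6, Hoxc9, Hoxd9 and Hoxd11 lost their calls in all 3 mutants. Without Fuz KO 1 and DKO 1 they were 30 in DKO and 29 in Fuz KO. The replicate block by number changed no count of calls between genotypes and, among the single genes named, ended only the Hoxd3 call in DKO, and the block by genotype and number, chosen after seeing the data, gave 34 in each region comparison while ending the calls of Hoxa4 in every genotype and of Hoxd3 in DKO and Fuz KO.

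The counts of 0 between genotypes did not all hold, and the cause was not tested. Apart from DESeq2, the shares of all genes called under these settings, or with 1 library left out, are not given here. The counts therefore do not show a change particular to Hox genes. Without a filter on low counts they were 3 for Head Fuz KO, 11 for Head Gpr161 KO, 3 for Head DKO, 1 for Tail Fuz KO, 2 for Tail Gpr161 KO and 2 for Tail DKO against WT, 3 and 7 for Head DKO and 3 and 8 for Tail DKO against Fuz KO and Gpr161 KO, 7 and 2 for the Gpr161 KO and DKO effects between regions, and 4 and 4 for non-additivity in Head and Tail. DESeq2 gave the counts printed above, 1 to 5 in 10 comparisons. Regions fitted alone gave 2 for Tail DKO against Tail Gpr161 KO. Without both Fuz KO 1 libraries the counts were 4 for Head Gpr161 KO and 1 for Head DKO against WT, 1 and 1 for Head DKO against Fuz KO and Gpr161 KO, 4 for Tail DKO against Gpr161 KO and 1 for the Gpr161 KO effect between regions. Without Fuz KO 1 and DKO 1 in both regions they were 5 for Head Gpr161 KO, 3 and 5 for Head and Tail DKO against Gpr161 KO and 1 for the Gpr161 KO effect. Without the number 1 library of every mutant, chosen after seeing the data, they were 5 for Head Gpr161 KO, 1 for Head DKO, 1 for Tail Gpr161 KO (Hoxa13) and 2 for Tail DKO (Hoxb13 and Hoxc13) against WT, 5 and 4 for Head and Tail DKO against Gpr161 KO and 2 for the Gpr161 KO effect.

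Leaving out 1 library gave 0 to 3 for Head Fuz KO (3 without Head Fuz KO 2) and 0 to 3 for Head Gpr161 KO against WT (3 without Head Fuz KO 1 or 2), 0 to 1 for Head DKO against WT and Head DKO against Fuz KO, 0 to 2 for Head and 0 to 3 for Tail DKO against Gpr161 KO, 0 to 1 for the Gpr161 KO effect between regions and 0 to 1 for Head non-additivity. Signs turned in 6 cases: Hoxd1 in Tail Fuz KO against Tail WT was at log2 -0.053 without both Fuz KO 1 libraries, -0.038 without these and DKO 1, -0.054 without Tail Fuz KO 1 and -0.038 without number 1 of every mutant, and Hoxc13 in Tail Gpr161 KO against Tail WT was at 0.071 without Tail Gpr161 KO 1 and 0.052 without number 1 of every mutant. Over the fits that left out 1 library, the log2 values ran from -0.054 to 1.25 for Hoxd1, Tail Fuz KO against Tail WT, and from -1.685 to 0.071 for Hoxc13, Tail Gpr161 KO against Tail WT. Of 5062 single values recomputed, 4848 kept direction and call, 105 lost and 103 gained a call. From group 4 on, most Head values rest on few counts, so each carries a wide counting error.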
